A study of Mus musculus with 27 samples.

Results

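Bone marrow and brain of wild-type mice were compared on 6 arrays, the 3 labelled wild-type bone marrow and the 3 labelled wild-type brain, out of 27 arrays in the series. The series covers liver, bone marrow and brain of mice that are wild type, or carry 1 or 2 copies of the tm1a allele of Mysm1 (Mysm1+/tm1a and Mysm1tm1a/tm1a), a gene that encodes a histone H2A deubiquitinase, with 3 arrays in each of 9 groups. All animals were on the C57BL/6 background. The mice of the 6 arrays used here carry no copy of that allele, and no treatment is given in the labels. Neither age nor sex is known here. The series' design text describes its tissue groups as separate animals, but nothing says whether a marrow and a brain with the same number came from 1 mouse. Whole tissue was snap-frozen, so every value is an average over all cells of the piece, and a lower value from fewer cells of a type cannot be told apart from one from less RNA per cell.

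Bone marrow is where blood cells are made. Its precursors divide many times before they leave as red cells, neutrophils, platelets and lymphocytes, and each division needs DNA replication, fresh histones and a mitotic spindle. Neurons of the adult brain no longer divide, and they carry instead the machinery of synaptic release, electrical signalling and axonal transport, with glial cells supplying myelin and taking up transmitter. Chromatin regulators work in both tissues, but several of their complexes are built from alternative subunits. The BAF complex of dividing neural progenitors, a SWI/SNF remodeller, is known to exchange ACTL6A, PHF10 and SS18 for ACTL6B, DPF1 or DPF3 and SS18L1 when neurons leave the cell cycle. EZH2 and EZH1, the catalytic subunits of the Polycomb repressive complex that methylates histone H3 at lysine 27, are likewise associated with dividing and resting cells.

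The 2 tissues stood far apart. Across features, marrow arrays correlated with each other at 0.953 to 0.982, brain arrays with each other at 0.989 to 0.996, and marrow with brain arrays at 0.466 to 0.489. Marrow arrays were dimmer before normalisation, with mean scanner signals of 194.4, 228.4 and 136.2 against 372.8, 352.6 and 359.9 for brain. They detected 32.8%, 35.4% and 28.6% of the 45281 probes against 43.7%, 43.9% and 43.6% for brain. Marrow replicate 3 was the dimmest array. The marrow arrays were all on 1 BeadChip and the brain arrays all on another, so tissue and BeadChip cannot be told apart.

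Values below are normalised log2 intensities, in which a difference of 1 is a 2-fold difference, and each difference is marrow minus brain with its standard error over 3 arrays per tissue. A gene was called when the adjusted p from limma was under 0.05. Of 13660 features (10924 named genes and 2736 probes without a gene name), 10480 or 76.7% were called, 4907 higher in marrow (35.9%) and 5573 lower (40.8%). A further condition of at least a 4-fold difference left 1724 higher (12.6%) and 2038 lower (14.9%). The array scaling sets this balance: 46.8% of calls were higher in marrow after quantile normalisation, against 14.7% when arrays were scaled to a common median and 11.9% when they were not scaled. The median difference of all features was -0.13, -1.28 and -1.49 under these 3 scalings. With so many calls, the sizes of differences and the shares of a gene group are read against these background values. A gene detected in 1 tissue alone entered the test through that tissue, so its direction was set by the detection filter. A gene detected on all 3 arrays of 1 tissue and on only some of the other also entered through the first tissue. A fold written "at least" is a bound for the quantile-normalised values only. With median scaling the fitted difference of Top2a, for example, was 5.12 in place of 6.25, and that of Syt1 -8.82 in place of -8.66.

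**Figure D1:**
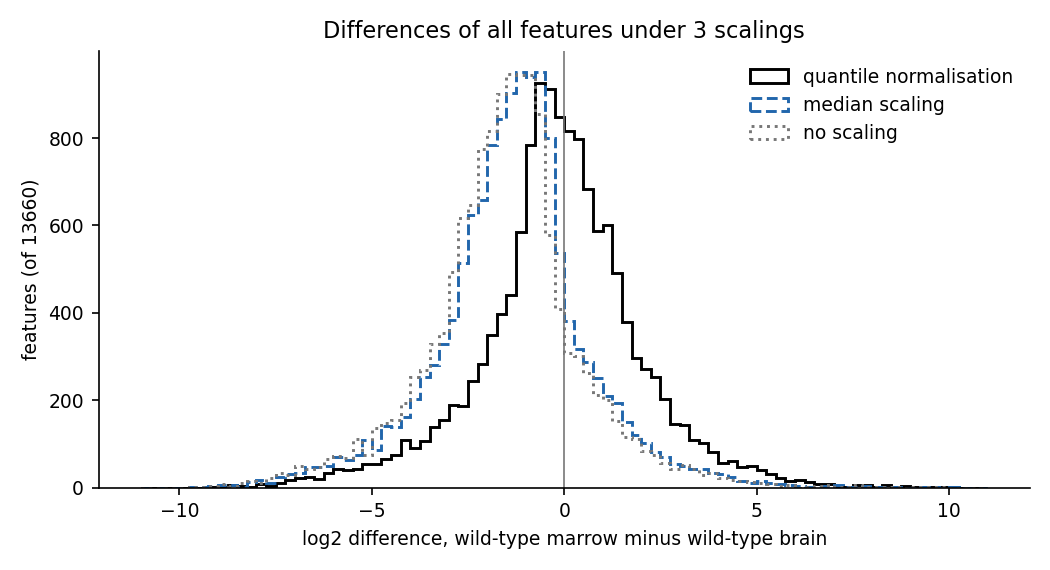
Number of features (vertical axis) by log2 difference, marrow minus brain, in bins along the horizontal axis, for quantile normalisation (solid), median scaling (dashed) and no scaling (dotted). The median lies at -0.13 with quantile normalisation, at -1.28 with median scaling and at -1.49 without scaling.

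Blood cell genes led the differences. The 12 largest positive differences belonged to S100a8, Slc4a1, S100a9, Ltf, Camp, Prg2, Alas2, Lcn2, Retnlg, Mpo, Ngp and Ear3, with fitted values from 10.01 to 8.22. They encode proteins of neutrophil granules and cytosol, of eosinophils (Prg2, Ear3) and of red cell precursors (Slc4a1, Alas2). S100a8, a subunit of the neutrophil protein calprotectin, read 14.96, 14.90 and 15.02 in marrow against 5.30, 5.09 and 4.46 in brain, where 2 of 3 arrays detected it. The difference was 10.01 ± 0.22 (adjusted p = 2.31e-07). Slc4a1, the anion exchanger of the red cell membrane, read 14.45, 14.54 and 14.31 in marrow against 4.63, 4.76 and 4.68 in brain. No brain array detected it, so it entered the test through marrow alone and the difference is a bound, at least 812-fold higher in marrow. Mpo, the myeloperoxidase of neutrophil precursors, was at least 264-fold higher, with 13.04, 12.97 and 12.42 in marrow and no brain array above background.

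Over 7 lists of blood lineage genes, 124 of 163 genes were tested, of which 115 were higher in marrow, 1 was lower and 8 were not called, against 35.9% of all features called higher. The median difference was 4.23, against -0.13 for all features, and with median scaling 103 were higher and 5 lower. Of the 124, 51 were detected on every marrow array and on no brain array, against 5.22% of all features, and these entered the test through marrow alone. Only 46 of the 124 were detected on all 6 arrays, against 54.3% of all features, and all others entered through 1 tissue. Ptprc, the pan-leukocyte marker, fell below the detection filter, and the B-cell marker Cd79a has no named probe and was not analysed here. Red cell genes counted 26 higher of 27 tested (35 listed), with Trim10 at least 194-fold and the carbonic anhydrase gene Car1 at least 163-fold higher. Neutrophil genes counted 28 higher of 28 tested (30 listed), with a median difference of 6.05. All 14 tested B lineage genes (23 listed) were higher. Vpreb3, a chaperone of the pre-B-cell receptor, read 10.13, 11.42 and 11.58 in marrow, a spread wider than that of the myeloid genes above, against 4.54, 4.59 and 4.57 in brain. Cd79b, the signalling chain of that receptor, was at least 57.5-fold higher in marrow. All 10 tested megakaryocyte genes (14 listed) were higher, among them the platelet chemokines Ppbp (at least 54.8-fold) and Pf4 (at least 37.6-fold) and the regulator Nfe2 (at least 160-fold). Of the monocyte genes 7 of 9 tested were higher (17 listed), with Lgals3 at 6.31 ± 0.15 and Irf8, which directs monocyte and dendritic cell fate, at least 17.5-fold higher.

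Genes shared by leukocytes were higher in 19 of 19 tested (23 listed), including Cd52 (6.42 ± 0.13) and the GTPase Rac2 (at least 41.7-fold). The blood regulators were less uniform, with 11 higher, 1 lower and 5 not called of 17 tested (21 listed). Ikzf1, a lymphoid and myeloid transcription factor, read 10.25, 10.46 and 10.44 in marrow against 5.23, 5.34 and 5.28 in brain, a difference of 5.10 ± 0.10. Tal1 and its relative Lyl1, helix-loop-helix factors of blood stem cells, differed by 4.82 ± 0.17 (1 of 3 brain arrays detected Tal1) and 4.38 ± 0.10, and Gfi1b, a repressor in red cells and platelets, was at least 20.3-fold higher. The lower gene was Cd34, a surface protein of stem cells and of vessel lining, with 5.05, 4.82 and 4.30 in marrow, detected on no marrow array, against 5.28, 5.62 and 5.41 in brain. Its fitted difference of -0.71 ± 0.21 (adjusted p = 0.0196) was no longer called without brain replicate 2 (-0.62, adjusted p = 0.0714) or without brain replicate 3 (-0.72, adjusted p = 0.0547).

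**Figure D2:**
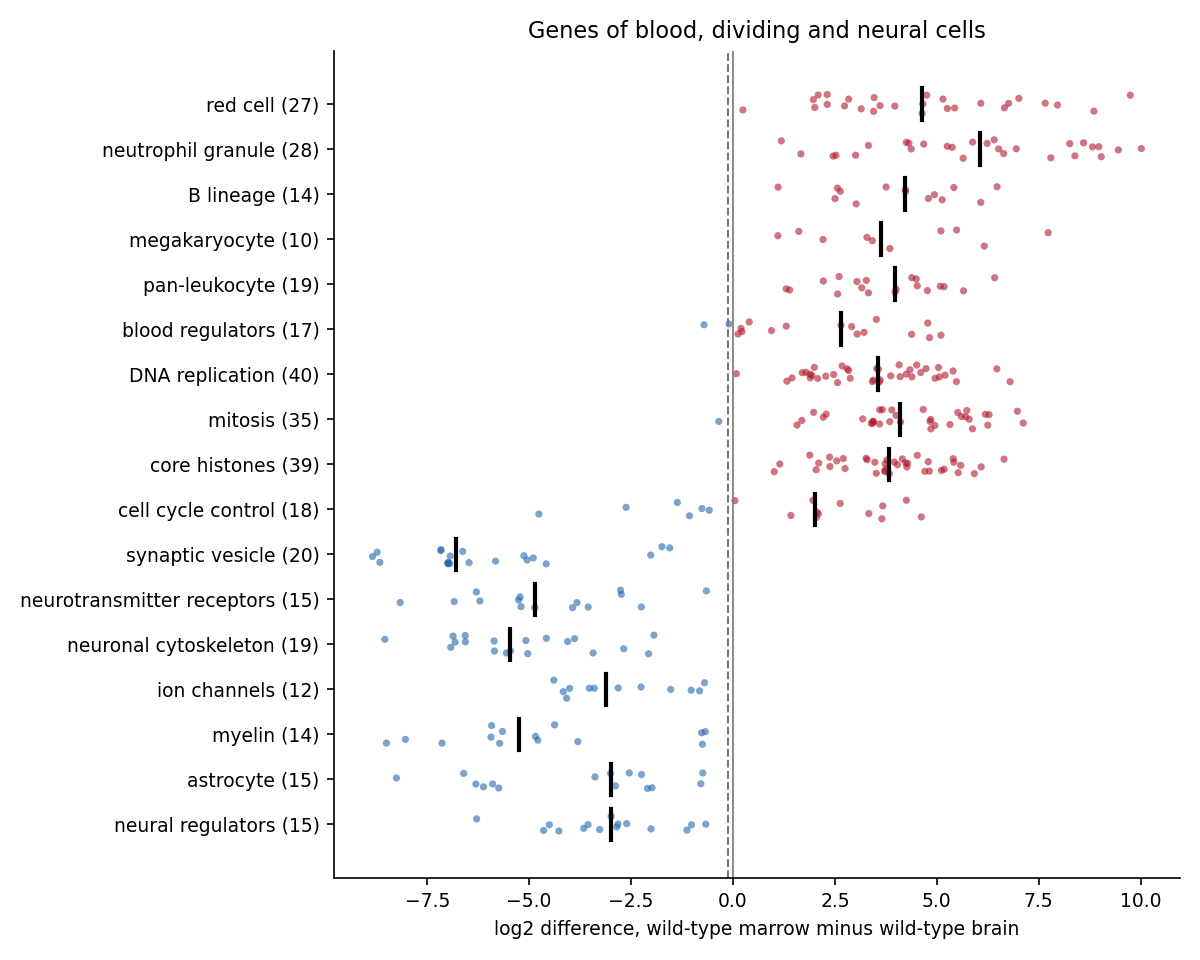
Log2 difference, marrow minus brain (horizontal axis), of each tested gene (point) in 17 lists, with the number tested in brackets, the median of each list as a black bar and the median of all features (-0.13) as a dashed line. The medians of the blood and cell division lists lie between 2.00 and 6.05, and those of the neural lists between -2.99 and -6.78.

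Genes of cell division were higher in marrow almost throughout. Of 132 genes tested in 4 lists (173 listed), 123 were higher, 7 lower and 2 not called, against 35.9% of all features called higher. At least 4-fold higher were 107 of them, against 12.6% of all features, and their median difference was 3.67 over the 132. With median scaling 99 were higher and 9 lower. Of the 132, 26 were detected on every marrow array and on no brain array, against 5.22% of all features, and these entered the test through marrow alone. On all 6 arrays 86 of the 132 were detected, against 54.3% of all features, and all others entered through 1 tissue. Of the 40 replication genes tested (49 listed), 39 were higher. E2f2, a transcription factor that drives S-phase genes and also the maturation of red cell precursors, read 11.64, 11.78 and 11.61 in marrow against 4.86, 4.76 and 5.02 in brain, where 2 arrays detected it (6.80 ± 0.11, adjusted p = 1.45e-07). Tk1, the thymidine kinase of dividing cells, read 11.02, 11.03 and 11.02 in marrow against 4.79, 4.35 and 4.52 in brain, where 1 array detected it. The helicase subunits Mcm2 and Mcm5, which unwind DNA at replication origins, differed by 5.48 ± 0.13 (2 brain arrays detected Mcm2) and 5.40 ± 0.14.

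Of the 35 mitosis genes tested (52 listed), 34 were higher in marrow, 31 of them at least 4-fold, with a median difference of 4.11. Birc5, the chromosomal passenger protein survivin, read 11.91, 11.91 and 11.96 in marrow against 4.98, 4.58 and 4.87 in brain, where 2 arrays detected it (7.12 ± 0.13, adjusted p = 1.45e-07). Nusap1, which bundles spindle microtubules, was at least 106-fold higher, and Cdk1, the kinase that starts mitosis, differed by 6.28 ± 0.11 with 1 brain array above background. Top2a, the topoisomerase that untangles sister chromosomes, read 10.76, 10.90 and 10.71 in marrow and was detected on no brain array, at least 64.9-fold higher in marrow. The lower gene was Bub3, a spindle checkpoint protein that is also present in resting cells, at 8.20, 8.27 and 8.17 in marrow against 8.60, 8.63 and 8.46 in brain. Its difference of -0.35 ± 0.10 (adjusted p = 0.0159) was not called without brain replicate 1 (-0.33, adjusted p = 0.0569) or without brain replicate 2 (-0.31, adjusted p = 0.0670).

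Promoters of 3 mitosis genes are shown because they carry the short elements counted over the list below them; they are the called mitosis genes with the largest differences whose window holds both motifs. Each is the 250 bases before the RefSeq start of the gene (build GRCm38.p6), written 5′ to 3′ on the strand of the gene. Capitals mark CCAAT and TTTGAA (the core of a cell cycle element bound by the DREAM complex), each searched on both strands (as ATTGG and TTCAAA on the other). The 2 motifs can overlap by an end letter. Prc1, a microtubule bundler of the dividing cell's midzone, was chosen for its window after its values were seen (12.07, 12.13 and 11.99 in marrow against 5.81, 5.82 and 5.98 in brain).
Cdk1 (chr10:69352913-69353162, minus strand): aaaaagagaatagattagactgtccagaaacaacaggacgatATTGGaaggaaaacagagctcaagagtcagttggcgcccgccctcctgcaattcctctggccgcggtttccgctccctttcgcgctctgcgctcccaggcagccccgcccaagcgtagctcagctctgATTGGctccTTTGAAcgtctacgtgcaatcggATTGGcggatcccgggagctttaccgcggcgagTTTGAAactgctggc
Top2a (chr11:99024190-99024439, minus strand): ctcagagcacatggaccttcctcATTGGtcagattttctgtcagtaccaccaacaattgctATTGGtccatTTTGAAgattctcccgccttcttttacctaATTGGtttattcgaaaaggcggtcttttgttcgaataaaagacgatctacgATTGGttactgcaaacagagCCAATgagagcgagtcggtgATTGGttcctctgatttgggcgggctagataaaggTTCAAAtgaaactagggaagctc
Prc1 (chr7:80294226-80294475, plus strand): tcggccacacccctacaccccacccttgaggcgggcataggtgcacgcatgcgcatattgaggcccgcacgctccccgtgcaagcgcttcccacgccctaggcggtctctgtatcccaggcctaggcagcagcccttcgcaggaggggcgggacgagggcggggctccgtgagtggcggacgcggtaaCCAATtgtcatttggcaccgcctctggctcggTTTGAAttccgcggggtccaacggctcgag
Cdk1 holds 3 CCAAT and 2 TTTGAA, Top2a 6 and 2, and Prc1 1 of each. In the window of 250 bases before to 50 after the start, available for 43 of the 52 mitosis genes, TTTGAA occurred in 69.8% of the genes, CCAAT in 74.4% and both in 60.5%. Over all 27025 genes with a window these shares were 20.2%, 41.1% and 7.97%, and over the tested named genes 14.0%, 43.1% and 5.75%. Among the replication genes both motifs occurred in 10.3% of the 39 with a window. TTTCCCGC or TTTGGCGC, forms of the E2F motif searched on both strands, occurred in 30.8% of replication genes and in 0 of the 43 mitosis genes, against 1.8% of all genes. These are matches of letters, not measured binding.

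Core histone genes, whose transcripts are made in S phase, were higher in marrow in 39 of 39 tested (49 listed), 36 at least 4-fold, with a median difference of 3.83. H2ac11 read 11.25, 11.35 and 11.53 in marrow against 4.50, 4.81 and 4.88 in brain, a difference of 6.65 ± 0.14 with 2 brain arrays above background. H2ac22, H2ac12 and H2ac15 differed by 6.09 ± 0.14, 5.92 ± 0.20 and 5.58 ± 0.21. These genes are near-identical copies, so a probe may read several of them and their number is not a count of independent genes.

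The genes that control entry into the cell cycle split, with 11 higher, 6 lower and 1 not called of 18 tested (23 listed), and with median scaling 6 were higher and 7 lower. Cdk2, the S-phase kinase, read 11.11, 11.17 and 10.93 in marrow against 6.42, 6.46 and 6.47 in brain (4.62 ± 0.10). Cyclin D3, encoded by Ccnd3, differed by 3.65 ± 0.13, the pocket protein gene Rbl1 was at least 11.1-fold higher, and the inhibitor gene Cdkn2c differed by 4.25 ± 0.11. The kinase Cdk5 and its activator Cdk5r1, which act in neurons and not in the cell cycle, were lower in marrow by -2.62 ± 0.12 and -4.76 ± 0.14. Also lower in marrow were Ccnd1 (cyclin D1, -1.36 ± 0.15) and the inhibitor Cdkn1a (-1.07 ± 0.17). These 8 genes kept their direction under the 3 scalings. The dimmest kept probe of Ccnd1 differed by -0.41 and was not called. Of the further kept probes of Cdkn1a, 1 differed by -0.10 and was not called, and 1, detected on no marrow array, differed by -0.47.

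**Figure D3:**
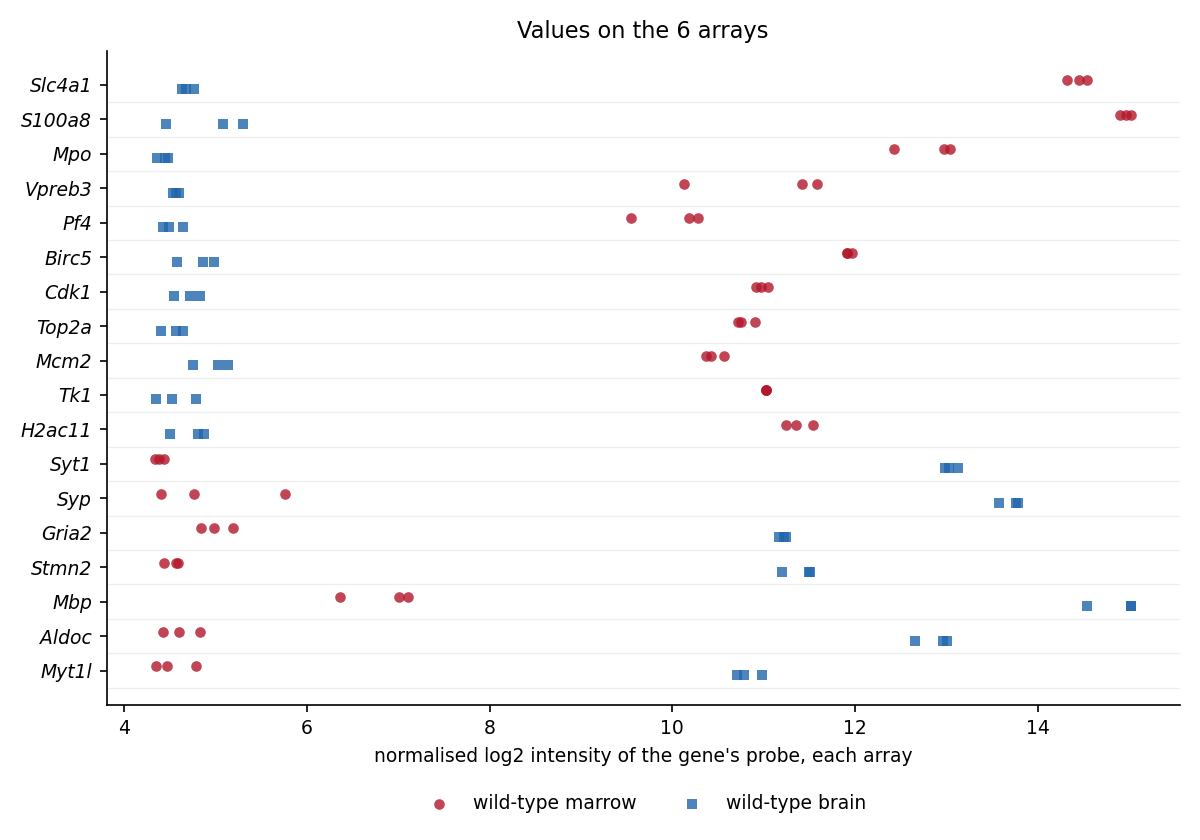
Normalised log2 intensity (horizontal axis) of the probe of 18 genes on each of the 3 marrow arrays (circles) and 3 brain arrays (squares). In no gene shown do the tissues overlap, as in 81.0% of all features, and the lowest values lie near the background of about 4 to 5.

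Neural genes gave the opposite picture. Over 7 lists, 110 of 148 genes were tested. Of these, 108 were lower in marrow, none was higher and 2 were not called, against 40.8% of all features called lower. At least 4-fold lower were 93, against 14.9% of all features. With median scaling all 110 were lower, as were 9122 of the 13660 features. The median difference was -4.54. Of the tested genes 69 were detected on every brain array and on no marrow array, against 20.2% of all features, and these entered the test through brain alone. Only 20 were detected on all 6 arrays, against 54.3% of all features, and all others entered through 1 tissue. All 20 tested synaptic vesicle genes (25 listed) were lower, with a median of -6.78. Syt1, the calcium sensor of vesicle fusion, read 4.44, 4.38 and 4.34 in marrow against 13.03, 13.13 and 12.99 in brain, at least 199-fold lower in marrow. Cplx1, a regulator of the same fusion step, read 5.16, 4.75 and 5.81 in marrow, where 1 array detected it, against 14.19, 14.03 and 14.03 in brain (-8.84 ± 0.26, adjusted p = 5.85e-07). Syp and Sv2a, proteins of the vesicle membrane, were lower by -8.73 ± 0.34 (1 marrow array detected Syp) and by at least 109-fold. Snap25 and Tubb3, further neuronal markers, fell below the detection filter.

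The 15 tested receptor and postsynaptic genes (24 listed) were all lower in marrow. Gria2, an AMPA glutamate receptor subunit, read 4.84, 4.98 and 5.20 in marrow against 11.22, 11.25 and 11.17 in brain, at least 55.7-fold lower in marrow, and Gria1 was at least 36.3-fold lower. Camk2b and the kinase inhibitor Camk2n1, which stand at the postsynaptic density, differed by -6.84 ± 0.29 and -8.16 ± 0.17. All 19 neuronal cytoskeleton and transport genes tested (23 listed) were lower, with the kinesins Kif1a at -8.54 ± 0.28 (1 marrow array detected) and Kif5c at least 60.9-fold. The stathmins Stmn2, Stmn3 and Stmn4, which bind tubulin in growing and mature neurites, were at least 63.4-fold, 42.3-fold and 18.8-fold lower, whereas Stmn1, which dividing cells use too, differed by -0.25 ± 0.12 and was not called, but with median scaling it was lower too (-1.89, adjusted p = 0.000693). Of 12 ion channel genes (17 listed) 11 were lower, with Scn1a at least 10.2-fold, the AMPA receptor partner Cacng3 at least 8.87-fold, and the potassium channel Kcnc1 at -4.39 ± 0.26 (1 marrow array detected).

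Glial genes were lower in marrow as well. All 14 myelin genes tested (16 listed) were lower, with a median of -5.25. Mbp, myelin basic protein, read 7.01, 6.36 and 7.11 in marrow against 15.02, 15.02 and 14.54 in brain (-8.04 ± 0.24), but 1 of its other probes differed by 1.01 in the opposite direction. Cldn11, the tight junction protein of myelin, was at least 212-fold lower, and the oligodendrocyte regulators Olig1 and Sox10 were at least 79.6-fold and 32.0-fold lower. Of 15 astrocyte genes (19 listed) 14 were lower. Aldoc, the brain aldolase, read 4.60, 4.83 and 4.43 in marrow against 13.01, 12.96 and 12.65 in brain, at least 176-fold lower in marrow, and Sox9, Gjb6 and Ntsr2 were at least 38.1-fold, 40.6-fold and 50.5-fold lower. All 15 neural transcription factor genes tested (24 listed) were lower, with Myt1l at least 42.5-fold and Neurod2 at least 15.3-fold. Egr1, an immediate early gene of active neurons that blood cells express too, was detected on all 6 arrays and differed by -4.27 ± 0.25.

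The 12 lowest named genes of all were Snurf, Cplx1, Septin3, Syp, Syt1, Kif1a, Rasgrf1, Eno2, Cldn11, Slc24a2, Sult4a1 and Camk2n2, with fitted values from -8.95 to -8.30. Snurf, which shares a transcript with Snrpn at an imprinted locus, read 4.98, 5.11 and 5.89 in marrow, where 1 array detected it, against 14.34, 14.29 and 14.20 in brain. Rasgrf1, another imprinted gene that encodes a calcium-dependent exchange factor for Ras, was at least 237-fold lower in marrow. Eno2, the neuronal enolase, differed by -8.53 ± 0.27 with 1 marrow array above background.

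The tissue labels were checked against markers of other cells, since whole marrow can bring bone, fat and muscle and whole brain can bring blood. Hba-a1, an alpha globin gene named here after its values were seen, read 15.92, 15.82 and 15.92 in marrow against 9.81, 12.06 and 11.53 in brain, so globin transcript was well above background in brain. The value 15.92 is the top of the normalised scale, so the marrow level is only a lower bound and no difference is given. Liver markers were near background, with 2 of 14 listed genes tested, Apoa1 and Apoa2, at 4.37 to 4.87 in marrow and 5.46 to 6.36 in brain. T and NK cell genes were higher in marrow in 7 of 7 tested (14 listed), with Nkg7 at least 32.9-fold and Cd3d at least 12.7-fold. Of 12 microglia and macrophage genes (13 listed) 5 were higher in marrow, 4 lower and 3 not called, but with median scaling 1 was higher and 7 were lower. Aif1, which macrophages and microglia share, had the list's largest difference in favour of marrow, with 9.78, 9.74 and 10.38 against 6.70, 7.07 and 7.45 in brain. The 4 lower in marrow were Cx3cr1 (-1.85, 2 marrow arrays detected), Olfml3 (-1.71), Gpr34 (-1.22) and Tmem119 (-1.05). For Gpr34 and Tmem119, 1 marrow array detected each. Of 14 endothelial genes (16 listed) 3 were higher and 9 lower, with Cldn5 (-3.27 ± 0.40, 2 marrow arrays detected) and Flt1 (-2.97 ± 0.16) lower in marrow and Ly6c1 higher (2.74 ± 0.17, but 1.19 and not called with median scaling, adjusted p = 0.0646).

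Bone and fat genes were present in marrow, with 7 of 9 tested stromal genes higher (19 listed) and a summed signal over the 9 of 5897 to 8001 in marrow against 1901 to 2876 in brain. Bglap, the osteoblast protein osteocalcin, read 10.62, 11.07 and 11.75 in marrow and was at least 83.2-fold higher, the bone matrix gene Ibsp was at least 11.1-fold higher and the fat cell hormone gene Adipoq at least 19.1-fold higher. Col1a1 differed by 4.76 ± 0.30. Sparc, a matrix protein that brain glia and vessels express, was lower in marrow (-2.31 ± 0.32).

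Muscle genes stood high on 1 marrow array. Tnni2, troponin of fast skeletal muscle, read 8.20, 7.62 and 9.66 in marrow replicates 1 to 3 against 4.67, 4.97 and 5.22 in brain, and Mylpf read 8.02, 7.74 and 8.99 against 5.09, 4.80 and 5.19. Of 6 muscle genes tested (10 listed) 4 were higher in marrow, 1 was lower and 1, Acta1, was not called, and all 6 were highest on replicate 3 among the marrow arrays. Mb read 6.79, 5.93 and 7.96 in marrow against 4.95, 5.10 and 5.12 in brain, and it and Atp2a1 were not called with median scaling (0.46 and 0.52). Atp2a1 differed by 2.23 (adjusted p = 0.0254), by 1.59 without marrow replicate 3 and by 1.65 without brain replicate 3, where it was not called (adjusted p = 0.0769). Pvalb, a calcium buffer of fast muscle and of certain neurons, read 6.66, 5.77 and 10.38 in marrow against 11.95, 11.85 and 11.64 in brain, a difference of -4.21 ± 1.13 that was -5.60 without marrow replicate 3 and -3.29 without marrow replicate 2. The summed signal of the 6 genes was 801 to 4631 in marrow and 3513 to 4275 in brain, where Pvalb makes up most of it. The part of these other cells in the results above was not tested.

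**Figure D4:**
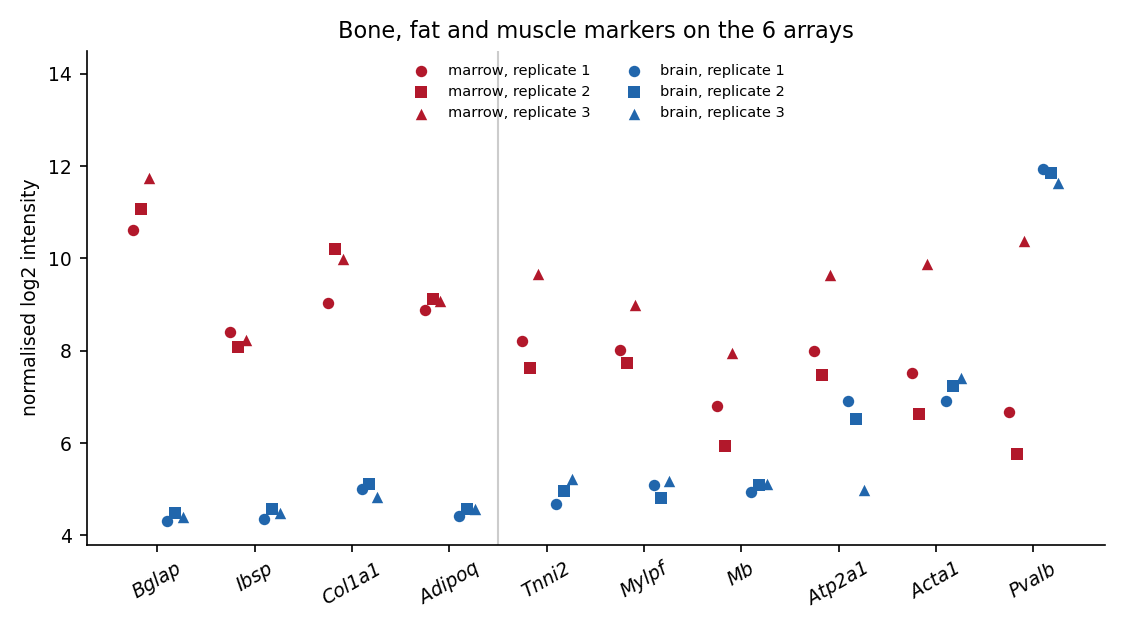
Normalised log2 intensity (vertical axis) of bone, fat and muscle markers (horizontal axis) on each marrow array (left of each pair, red) and brain array (right, blue), with the marker shape giving the replicate number. Marrow replicate 3 is the highest marrow array in each of the 6 muscle markers right of the line. Left of the line, Bglap is also highest on marrow replicate 3 and Col1a1 is lowest on marrow replicate 1. Ibsp and Adipoq differ less between marrow arrays.

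Chromatin regulators changed less than the genes of lineage and division, and their directions depended more on the scaling. Of 296 genes in 9 lists, 239 were tested, of which 134 were higher in marrow, 56 lower and 49 not called, so that 79.5% were called, close to the 76.7% of all features. At least 4-fold differences were found in 40 higher and 17 lower genes, together 23.8% of those tested. Of all features, 12.6% were at least 4-fold higher and 14.9% at least 4-fold lower. On all 6 arrays 182 of the 239 genes were detected, against 54.3% of all features. After scaling to a common median, 24 were called higher and 138 lower. Called in the same direction under all 3 scalings were 21 higher and 56 lower genes, 8.79% and 23.4% of those tested, against 9.60% and 40.6% of all features. Of all features, 1311 of the 4907 higher calls but 5552 of the 5573 lower calls were kept under all 3 scalings. A kept lower call is therefore the rule and sets no gene apart. The genes described as higher in the following paragraphs are among the 21 unless stated otherwise.

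Among the chromatin genes Uhrf1 had the largest difference in favour of marrow. Uhrf1, which recruits the maintenance DNA methyltransferase to newly copied DNA, read 11.24, 11.24 and 11.21 in marrow against 4.82, 5.06 and 5.45 in brain, a difference of 6.12 ± 0.17 (adjusted p = 4.54e-07). Dnmt1, that methyltransferase, read 9.48, 9.64 and 9.34 in marrow against 6.71, 6.74 and 6.76 in brain (2.75 ± 0.11). With median scaling Dnmt1 differed by 0.98 and was not called (adjusted p = 0.0647). Dnmt3b, a methyltransferase that sets new marks, differed by 2.32 ± 0.16, by 0.69 with median scaling and by 0.48 without scaling, where it was not called (adjusted p = 0.147). In contrast, Tet1, which oxidises methylcytosine, was detected on no marrow array and was at least 1.68-fold lower there. Of the 16 genes tested for DNA methylation, its readers and the nuclear lamina (22 listed), 14 were higher and 1 was lower in marrow, and 3 of the 14 were higher under all 3 scalings. At least 4-fold higher were 3 lamina genes, Lbr (the lamin B receptor, also known for shaping the neutrophil nucleus, 4.66 ± 0.11), Lmnb1 (lamin B1, 4.32 ± 0.09) and Lmna (lamins A and C, 2.46 ± 0.12). With median scaling Lmna differed by 0.76 and was not called (adjusted p = 0.0539).

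Histone chaperones and architectural proteins counted 24 higher, 6 lower and 2 not called of 32 tested (44 listed), with 7 higher and 6 lower under all 3 scalings. Chaf1b and Chaf1a, subunits of the factor that places histones on newly made DNA, differed by 5.22 ± 0.12 (1 brain array detected Chaf1b) and 3.79 ± 0.10, and Asf1b, a chaperone of dividing cells that hands histones to it, was at least 17.0-fold higher. Hmgb2, a DNA-bending protein of proliferating cells, read 11.31, 11.17 and 11.32 in marrow against 5.29, 5.54 and 5.70 in brain (5.76 ± 0.13). Linker histones moved in both directions, with H1f5 4.53 ± 0.13 higher and H1f10 at least 5.74-fold lower in marrow. H2ax, the variant phosphorylated at DNA breaks, differed by 3.33 ± 0.10. Nap1l5, an imprinted nucleosome assembly gene of brain, read 5.27, 4.58 and 4.45 in marrow against 9.82, 9.60 and 9.40 in brain, at least 18.3-fold lower in marrow.

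Cohesin and condensin genes, which hold and compact chromosomes, were higher in 21 of 22 tested (25 listed), and 7 were higher under all 3 scalings while 4 were called lower with median scaling. The condensin subunits Ncaph and Ncapd2 differed by 5.17 ± 0.11 and 4.32 ± 0.09, with Ncaph at 10.30, 10.19 and 10.24 in marrow against 5.02, 4.99 and 5.22 in brain. Smc4, a core ATPase of condensin, was at least 8.65-fold higher, and Smc2, its partner, differed by 2.37 ± 0.26, which with median scaling was 1.06 and not called (adjusted p = 0.0563). Esco2, the acetyltransferase that locks cohesin in S phase, and Sgo1, which protects cohesin at centromeres, were at least 24.6-fold and 21.8-fold higher in marrow. These bounds hold for quantile normalisation, and with median scaling the fitted differences fell from 4.95 to 3.75 and from 4.75 to 3.53.

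Within SWI/SNF remodellers, some alternative subunits of 1 position differed in opposite directions. At the actin-related position, Actl6a read 8.84, 8.46 and 8.66 in marrow against 5.45, 5.47 and 5.75 in brain (3.09 ± 0.14, adjusted p = 3.46e-06), and its neuronal counterpart Actl6b read 4.86, 4.64 and 5.66 in marrow against 10.26, 10.33 and 10.47 in brain. No marrow array detected Actl6b by this probe, and it was at least 30.7-fold lower there. Of its 3 further probes, 2 were detected on every brain array and on no marrow array, and 1, detected on 2 marrow arrays, differed by -0.45 and was not called. A second probe of Actl6a, detected on every array of both tissues, differed by only 1.02. At the BAF60 position, Smarcd2, which is needed for granulocyte formation, read 10.11, 10.22 and 9.93 in marrow against 6.86, 6.93 and 6.66 in brain (3.27 ± 0.13). Smarcd3 read 4.49, 4.48 and 4.57 in marrow against 8.06, 8.04 and 8.46 in brain, at least 6.83-fold lower in marrow. Smarcd1, also of this position, was close to background in both tissues and detected on no marrow array (-0.35 ± 0.10, adjusted p = 0.0209). Phf10, the BAF45 subunit of progenitors, read 10.99, 10.56 and 10.59 in marrow against 7.77, 7.55 and 7.54 in brain (3.09 ± 0.15), while its neuronal counterpart Dpf1 read 4.53, 4.80 and 5.83 in marrow against 5.49, 5.73 and 5.85 in brain and was not called (-0.64 ± 0.34, adjusted p = 0.128). Without marrow replicate 3, Dpf1 differed by -1.03 and was called (adjusted p = 0.000879), and with median scaling it differed by -1.35 and was called (adjusted p = 0.000579). The further BAF45 genes Dpf2 and Dpf3 fell below the detection filter. By the brightest probe of each gene, Actl6a, Actl6b, Smarcd2, Smarcd3 and Phf10 kept their direction with median scaling. The differences were then 1.47 for Actl6a, 1.52 for Smarcd2 and 1.36 for Phf10. Each of these 5 genes was called there, Actl6b and Smarcd3 as lower with no marrow array above background.

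Other positions of the complex followed the scaling more closely. Ss18l1, the SS18 family subunit of neurons, differed by -2.57 ± 0.32 and was detected on 1 of 3 marrow arrays. Ss18 differed by 0.82 ± 0.13 with quantile normalisation and by -1.21 without scaling. With median scaling Ss18 differed by -0.998 and was not called (adjusted p = 0.0599). The core scaffold genes Smarcc1 and Smarcc2 differed by 0.77 ± 0.12 and -0.87 ± 0.21, and Smarcc1 turned to -0.89 with median scaling. Of the 2 ATPases, Smarca2 was lower in marrow by its brightest probe (-2.51 ± 0.10) and 1 other kept probe differed by 0.83 in the opposite direction. Smarca4 differed by 1.28 ± 0.15 with quantile normalisation and by -0.35 with median scaling, where it was not called (adjusted p = 0.328). In all, 13 of the 24 tested SWI/SNF genes (26 listed) were higher, 8 lower and 3 not called. Under all 3 scalings 3 higher and 8 lower genes kept their call. Of all features 76.7% were called, and 9.60% kept a higher and 40.6% a lower call, so these counts do not set the list apart.

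**Figure D5:**
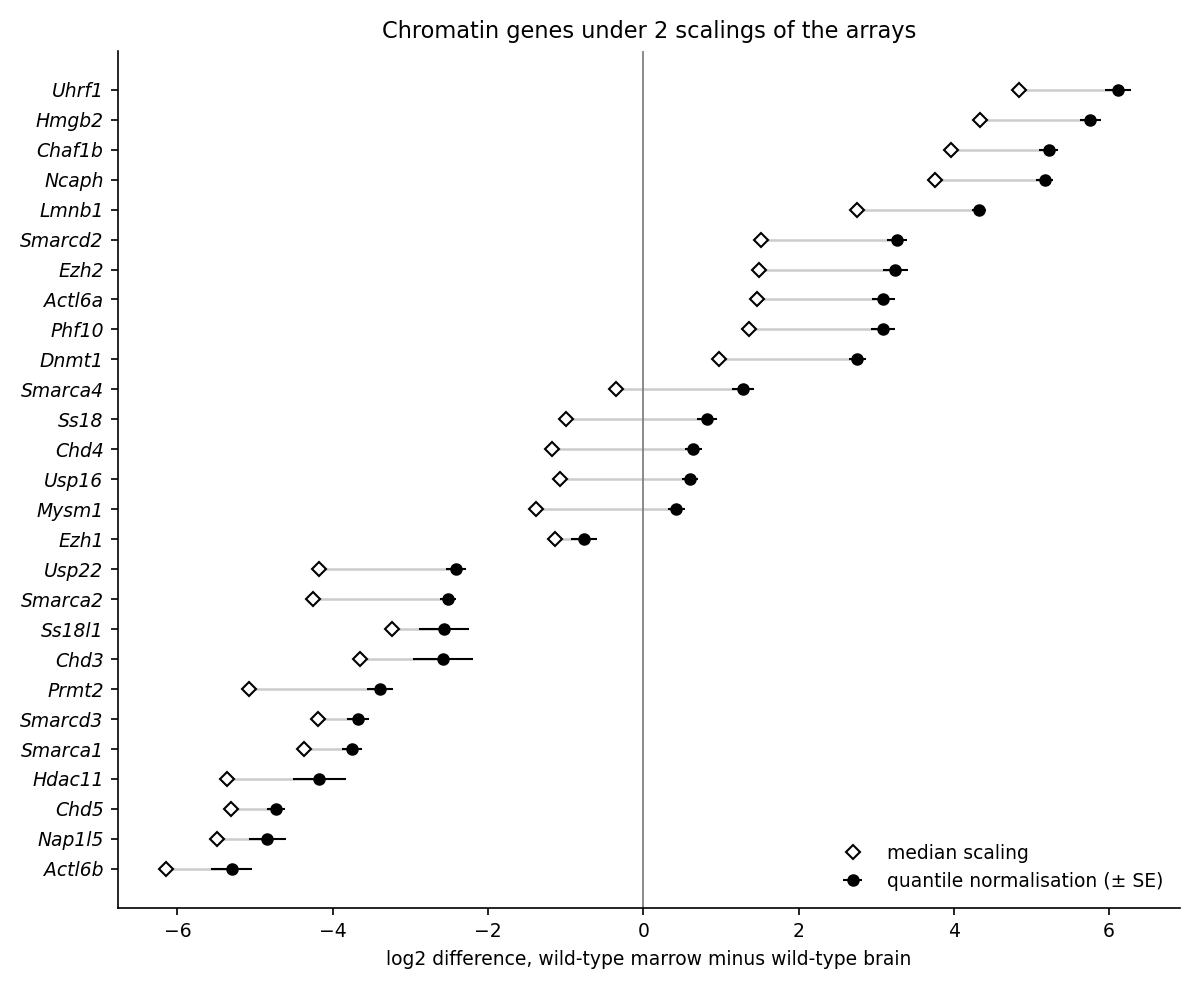
Log2 difference, marrow minus brain (horizontal axis), of 27 chromatin genes after quantile normalisation (filled circles with standard error) and after median scaling (open diamonds). The genes from Uhrf1 to Dnmt1 lie right of 0 and those from Ezh1 to Actl6b left of 0 under both, while Smarca4, Ss18, Chd4, Usp16 and Mysm1 cross 0. No marrow array detected Ezh1, Smarcd3, Smarca1, Chd5, Nap1l5 or Actl6b, so their points are fitted values and not measured sizes.

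Remodeller ATPases of other families included 3 that were far lower in marrow. Chd5, a neuronal member of the NuRD remodeller, read 4.54, 4.61 and 4.82 in marrow against 9.47, 9.38 and 9.30 in brain, at least 15.7-fold lower in marrow. Chd3, its relative, differed by -2.58 ± 0.39, with 6.02, 6.21 and 4.72 in marrow (2 arrays detected) against 8.21, 8.37 and 8.13 in brain. The widely expressed Chd4 differed by 0.65 ± 0.11 with quantile normalisation, by -1.17 with median scaling and by 0.035 with its dimmest kept probe. Smarca1, an ISWI ATPase, was at least 8.22-fold lower in marrow. Of 24 tested genes of these families (35 listed) 13 were higher and 8 lower, and none of the 13 but all of the 8 kept their call under the 3 scalings. Nearly all lower calls over all features did so too.

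Among Polycomb genes, 6 were higher, 8 lower and 11 not called of 25 tested (30 listed), so a smaller share was called than the 76.7% of all features. Ezh2 read 9.33, 9.53 and 9.50 in marrow against 6.26, 5.92 and 6.45 in brain (3.24 ± 0.16, adjusted p = 4.36e-06), and it was the 1 gene of this list that was higher under all 3 scalings. Ezh1 read 4.47, 5.01 and 4.54 in marrow, below detection on all 3 arrays, against 5.52, 5.32 and 5.48 in brain, a fitted difference of -0.77 ± 0.17 close to background in both tissues. Cbx6, a reader of the mark made by these enzymes, differed by -3.49 ± 0.46 with 2 marrow arrays above background.

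Histone acetylation and methylation genes differed in both directions. Of 31 acetylation genes tested (36 listed) 10 were higher, 9 lower and 12 not called, and of 47 methylation genes tested (54 listed) 24 were higher, 9 lower and 14 not called. In both lists a smaller share was called than the 76.7% of all features. None of the 10 and none of the 24 were higher under all 3 scalings. The 9 lower genes of each list were lower under all 3, as were nearly all lower calls over all features. At least 4-fold higher in marrow were the acetylation genes Sap30, a subunit of the SIN3 deacetylase complex (2.47 ± 0.09), and Hat1, which acetylates newly made histone H4 (2.22 ± 0.09). The same held for the lysine methyltransferase genes Kmt5a (2.09 ± 0.12) and Nsd2 (2.03 ± 0.11), but 1 other kept probe of Nsd2 differed by -0.74. With median scaling these 4 genes differed by 0.76, 0.66, 0.31 and 0.22, and none was called. At least 4-fold lower were 1 acetylation gene and 4 methylation genes. Hdac11, a deacetylase abundant in brain, read 5.80, 4.79 and 6.18 in marrow, where 2 arrays detected it, against 9.85, 9.80 and 9.63 in brain (-4.17 ± 0.35). Prmt2, an arginine methyltransferase, read 7.40, 7.41 and 7.24 in marrow against 11.02, 10.78 and 10.42 in brain (-3.39 ± 0.17), and Prmt8, a membrane-bound brain relative, was at least 2.33-fold lower in marrow. The lysine methyltransferase genes Smyd3 and Setd7 were lower by at least 4.61-fold and by -2.64 ± 0.40 (2 marrow arrays detected Setd7).

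For histone H2A and H2B ubiquitination, 9 genes were higher, 7 lower and 2 not called of 18 tested (24 listed), and the 7 lower genes were the ones called under all 3 scalings. Nearly all lower calls over all features were likewise kept. Usp22, the deubiquitinase of the SAGA coactivator, read 7.76, 8.17 and 7.87 in marrow against 10.43, 10.30 and 10.32 in brain (-2.41 ± 0.13). Mysm1 itself read 8.13, 8.25 and 8.39 in marrow against 7.76, 7.91 and 7.82 in brain. Its difference of 0.42 ± 0.11 (adjusted p = 0.0113) was -1.38 with median scaling, and a second, dimmer probe that no marrow array detected had a fitted difference of -0.60. Usp16, another H2A deubiquitinase, differed by 0.61 ± 0.10 with quantile normalisation and by -1.07 with median scaling. For Mysm1 and Usp16 the arrays therefore give no direction that is independent of the scaling.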

How the data were processed

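Total RNA of whole tissue was labelled and hybridised to Illumina mouse BeadChips with 45281 probes. The deposited table holds 1 scanner intensity per probe and array, exported from BeadStudio per the submitters' processing notes, which also name limma. The same deposited table gives a detection p-value per probe. Whether BeadStudio subtracted background is unstated, and these sources name no genome build. The authors' deposited processed intensities differ by at most 2.29% from a quantile normalisation of the linear intensities of all 27 arrays, and served as an alternative.

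From the intensities of the 6 arrays, background was fitted from the detection p-values (neqc, offset 16), and arrays were quantile normalised together and taken to log2 with limma 3.58.1 in R 4.3.3. Probes with detection p under 0.05 on all 3 arrays of at least 1 tissue were kept (19310). Of all probes, 34885 have 1 gene symbol in the platform annotation, 18 several and 10378 none; 34807 were updated through RefSeq. Each gene is represented by its brightest kept probe. Of 177 further kept probes of the genes named, 16 had the opposite sign. Tissues were compared with lmFit and eBayes, adjusted by Benjamini-Hochberg over all 13660 features. With 3 arrays per tissue, the number of arrays limits the precision. Replicates are the labels' samples, described as separate animals.

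A fold written "at least" sets the bright tissue's mean against, in each array of the undetected tissue, its lowest signal of a detected probe or the probe's own signal, whichever was higher. These folds use the quantile-normalised values and were not computed under the other scalings. The 35 gene lists, the families of alternative subunits and the members named were chosen with earlier results of these data known. Genes named come from a rule: the 12 highest and 12 lowest called genes with groups apart, up to 4 called members per direction of each list (8 for chromatin lists), or the 2 smallest p where none was called, the alternative-subunit families and Mysm1; Hba-a1, Prc1, Acta1 and the control genes of the closing section were named after their values were seen. The fit was tested on simulated data. Promoter windows are RefSeq's (GRCm38.p6).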

Additional observations from a re-analysis of the deposited data

How the results depend on the processing

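Median scaling gave 1568 features higher and 9122 lower in marrow, of which 638 and 4393 were at least 4-fold, and no scaling gave 1311 and 9739, of which 552 and 5048 were at least 4-fold. Keeping probes detected on all 6 arrays, which removes genes found in 1 tissue, left 7493 features with 2133 lower, and 976 higher and 484 lower at least 4-fold. Its share of higher calls was 64.5%. Steps that leave more background compressed the large differences: at least 4-fold were 803 higher and 1020 lower without background correction, 884 and 1082 in the authors' processed table, and 1146 higher with an offset of 50. A test against a 2-fold difference (treat) called 2503 higher and 2775 lower. Leaving out 1 array gave 4533 to 5253 higher and 5100 to 5799 lower, and 1700 to 1754 and 2015 to 2085 at least 4-fold. A detection p under 0.01, no detection filter, the dimmest kept probe and array weights moved these 4 counts by less than 1.5 times.

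Of 165 genes followed, the direction reversed for Mysm1 (-1.38 with median scaling, -1.59 with no scaling, -0.60 with its dimmest kept probe), Usp16 (-1.07, -1.28), Chd4 (-1.17, -1.38), Ss18 (-0.998, -1.21), Smarcc1 (-0.89, -1.10) and Smarca4 (-0.35, -0.56) under median scaling and no scaling, and for Acta1, not called in the comparison, with no scaling (-1.22). The reversed values of Ss18 and Smarca4 were not called with median scaling (adjusted p = 0.0599 and 0.328). Same-numbered marrow and brain arrays did not deviate together (r = 0.008, -0.031 and -0.010). Each tissue has few arrays, so these values cannot tell whether a same-numbered marrow and brain came from the same mouse. With the replicate number as a block, 4763 features were higher and 5420 lower.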

Other observations

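Control genes did not stand still between the tissues. Of 29 ribosomal protein genes tested (44 listed), 21 were higher in marrow, 3 lower and 5 not called, with a median difference of 0.84 after quantile normalisation and 0.06 after median scaling, under which 1 was called higher and 2 lower. Rplp0 read 8.45, 8.47 and 8.43 in marrow against 6.29, 6.41 and 6.33 in brain, whereas Rplp1 read 14.36, 14.56 and 14.43 in marrow against 15.14, 15.24 and 15.31 in brain. Of 8 housekeeping genes tested (12 listed), 3 were higher and 4 lower. Gapdh and Ppia, often used as references, were lower in marrow by -1.29 ± 0.09 and -1.33 ± 0.10, while Actb and Gusb were higher by 1.02 ± 0.12 and 2.32 ± 0.13. With median scaling Actb (0.47), Gusb (0.55), Rplp0 (0.35) and Rplp1 (-0.64) were not called. Of the other kept probes of Gusb, 1 differed by -0.35, in the opposite direction.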
